A study of Mus musculus with 12 samples.

Results

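Hhipl1, Apoa1, Nptx1, Enc1, Akap12, Adcy6 and Tnrc18 are 7 of the 54532 genes in the deposited tables. They were chosen by their counts with dexamethasone (dex) against saline in sorted germ cells of the newborn mouse testis, where the difference was clear. They were then followed into sorted somatic cells of newborn testes under the same treatments. The germ cell difference therefore chose the genes, and it is given here as a description with no test. With dex, 6 of the 7 stood higher in germ cells and 1, Tnrc18, stood lower. In somatic cells 5 of them were plentiful enough to be kept by the filter on low counts. Of those 5, edgeR called 0, against 3.91% of all 16766 genes tested there, so 0 of 5 says little. At an unadjusted p under 0.05 the somatic difference passed in edgeR for 3 of the 5, and for 2701 of all 16766 genes. DESeq2 called 1 of the 5 (Akap12, higher with dex) and 905 of the 16018 genes it tested. With library totals edgeR called 1 of the 5 (Enc1, lower with dex) and 708 of 16766.

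The mice carried the Pou5f1-ΔPE-eGFP transgene (OCT4-GFP), a piece of the Pou5f1 regulatory region driving green fluorescent protein in germ cells. Dams received dex (10 μg per g of body weight, IP) or the saline vehicle at E17.5 and again at E18.5 (embryonic days), the pups received the same agent under the skin at PN0 (postnatal day 0), and testes were taken at PN1 for sorting by flow cytometry. RNA-seq of polyA RNA gave 4 groups of 3 libraries: dex germ and saline germ (GFP-positive), and dex somatic and saline somatic (GFP-negative). Per the study, each replicate held testes pooled from at least 2 separately dosed litters. The GFP-negative fraction is everything else in the testis, so it is a mixture of cell types, and in bulk RNA fewer cells of a type cannot be told apart from less RNA per cell.

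Dex is a synthetic ligand of the glucocorticoid receptor, a transcription factor that moves to the nucleus on binding its ligand and raises some genes and lowers others. Around birth the male germ cells are prospermatogonia, which rest in cell cycle arrest inside cords of Sertoli cells before they resume division. The 7 genes do unlike work. Hhipl1, Apoa1 and Nptx1 encode secreted proteins, Enc1 a cytoplasmic adaptor, Akap12 and Adcy6 parts of the cyclic AMP (cAMP) pathway, and Tnrc18 a chromatin protein.

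Library totals lay between 18459692 and 25178477 counts. Levels of one gene are given as CPM, counts scaled to the TMM-adjusted library size, in which 3 counts (what a count of 0 still allows, for counting error only) are worth 0.111 to 0.17 CPM. The sort was clear in the germ and Sertoli markers. The 8 germ markers summed to 3118 to 3335 CPM in germ libraries, and the highest somatic library held 0.743% of the germ mean. The 9 Sertoli markers, none of them at 0, summed to 5185 to 5825 CPM in somatic libraries. They summed to 62.7 to 69.1 CPM in dex germ libraries and 78.1 to 89.5 CPM in saline germ libraries, the highest of which held 1.60% of the somatic mean. Sertoli markers in germ libraries thus stood lower with dex, and their part in the germ cell differences was not tested.

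For 3 of the 7 genes the RefSeq promoter table (GRCm38.p6) held the region around the start site. The table held 2 genes that stood higher and the 1 that stood lower, so 200 bases upstream of each start are shown. Each runs 5′ to 3′ on the strand of its gene, from 250 to 51 bases before the RefSeq start, at chr9:46228380-46228579 for Apoa1 (plus strand), chr12:108306020-108306219 for Hhipl1 (plus strand) and chr5:142817713-142817912 for Tnrc18 (minus strand). For Apoa1 the RefSeq start lies 50 bases inside the gene as the count table places it, and for the other genes both starts are the same. Capitals mark GGAACA on either strand.
Apoa1: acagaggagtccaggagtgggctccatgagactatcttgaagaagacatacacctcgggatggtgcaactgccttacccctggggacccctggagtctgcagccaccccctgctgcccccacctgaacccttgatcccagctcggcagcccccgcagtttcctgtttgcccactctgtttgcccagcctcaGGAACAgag
Hhipl1: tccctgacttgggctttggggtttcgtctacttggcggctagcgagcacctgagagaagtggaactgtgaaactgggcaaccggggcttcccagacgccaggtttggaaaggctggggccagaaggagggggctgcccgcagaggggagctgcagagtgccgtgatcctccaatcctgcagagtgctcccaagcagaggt
Tnrc18: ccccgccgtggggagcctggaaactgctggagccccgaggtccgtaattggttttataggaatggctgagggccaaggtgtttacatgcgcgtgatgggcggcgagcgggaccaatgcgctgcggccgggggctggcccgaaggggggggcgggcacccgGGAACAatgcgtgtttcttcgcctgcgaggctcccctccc
The search covered 300 bases, from 250 before to 50 after the start, on both strands. AGAACA, the receptor's usual binding motif in its single form, was in none of the 3 windows and in 19.0% of all 32851 windows. The paired form, AGAACA followed after 3 bases by its reverse complement, which contains the single form, was in none of the 3 and in 0.00913% of all windows. GGAACA, a variant added after the windows had been read, was found once in Apoa1, beginning 59 bases before the start, and once in Tnrc18, beginning 90 bases before it. GGAACA was in 15.9% of all windows. The motif of the cAMP-responsive factor CREB, TGACG, was in none of the 3 and in 20.8% of all windows. The 3 windows held 4 (Apoa1), 13 (Hhipl1) and 21 (Tnrc18) CG pairs against a median of 7 over all windows.

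Hhipl1 (ENSMUSG00000021260, GRCm38 chromosome 12, 108306270 to 108330869, plus strand) encodes a secreted protein related by sequence to the hedgehog-interacting protein Hhip. Dex germ replicates 1, 2 and 3 held 10.6, 11.2 and 10.1 CPM, and saline germ replicates held 2.15, 2.97 and 1.29 CPM. Every dex library stood above every saline library, with means of 10.6 ± 0.559 and 2.14 ± 0.842 CPM (SD, n = 3). Dex over saline gave a log2 fold change of 2.31 ± 0.26 (SE), a 4.96-fold difference with a 95% interval of 3.38 to 7.28, the widest step of the 7. The gene was scarce all the same, with 27 to 57 counts in a saline germ library. In somatic cells the dex libraries held 6.74, 7.20 and 8.27 CPM and the saline libraries 6.14, 7.74 and 6.66 CPM. These groups overlapped, and the somatic log2 fold change was 0.15 ± 0.22 (interval -0.33 to 0.62, edgeR adjusted p 0.818). An antisense gene, 4930478K11Rik, shares 179 bases of Hhipl1 exon, 3.20% of its exon length, and its counts came to 3.86% of those of Hhipl1 in germ libraries and 2.33% in somatic libraries. Whether the counting used strand is not stated, so reads from that stretch cannot be told apart.

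Apoa1 (ENSMUSG00000032083, chromosome 9, 46228580 to 46230466, plus strand) encodes the main protein of high-density lipoprotein and is made chiefly by liver and intestine. It stood at 7.34, 12.96 and 6.71 CPM in the dex germ replicates and at 3.20, 2.76 and 2.72 CPM in the saline germ replicates. The groups did not overlap, but dex replicate 2 stood well above the other two dex libraries. The log2 fold change was 1.63 ± 0.26, or 3.10-fold, and 1.27 without dex germ replicate 2. Somatic libraries held almost none of it, with 0, 4 and 8 counts in the dex replicates and 1, 14 and 9 counts in the saline replicates. The groups overlapped, and the gene fell below the filter on low counts. Without that filter its somatic log2 fold change was -0.798 ± 1.499 (edgeR adjusted p 0.861), and in 1 fit of all 12 libraries -0.84 ± 0.77 (adjusted p 0.655).

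The hepatocyte markers were set beside Apoa1. Of the 6, Afp made up nearly the whole sum in germ libraries, with means of 66.9 CPM in dex and 79.5 CPM in saline. Alb, Ttr, Fgb and Apoc3 had at most 5 counts in any germ library, and Alb was at 0 in all saline germ libraries. The summed list stood at 62.3 to 73.5 CPM in dex germ libraries, 69.8 to 91.6 CPM in saline germ libraries and at most 0.761 CPM in somatic libraries. Apoa2, which lies in the same lipoprotein, had 17 to 36 counts in dex germ libraries and 6 to 17 in saline germ libraries (log2 fold change 0.77 ± 0.50, edgeR adjusted p 0.519).

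Nptx1 (ENSMUSG00000025582, chromosome 11, 119538719 to 119547753, minus strand) encodes neuronal pentraxin 1, a secreted protein that gathers glutamate receptors of the AMPA type at synapses. It stood at 43.8, 44.7 and 41.6 CPM in the dex germ replicates and at 19.8, 20.2 and 21.1 CPM in the saline germ replicates. Both groups were tight and lay far apart, with means of 43.4 ± 1.60 and 20.4 ± 0.662 CPM and a log2 fold change of 1.08 ± 0.11 (2.12-fold). Somatic libraries held 7, 22 and 7 counts in dex and 7, 5 and 5 counts in saline. They overlapped at a replicate with 7 counts in each, dex replicate 2 stood apart, and the gene fell below the filter. Without that filter its somatic log2 fold change was 1.196 ± 1.187 (edgeR adjusted p 0.699), and in 1 fit of all 12 libraries 1.199 ± 0.437 (unadjusted p 0.0140, adjusted p 0.170). The highest saline somatic library held germ markers at 0.743% of the germ mean, and the highest dex somatic library at 0.651%. If all somatic libraries carried germ cell RNA at 0.743%, it would amount to 55.4% of the mean somatic Nptx1 level in saline and 51.8% in dex. The part of such RNA was not tested. The 9 neuron and glia markers summed to 93.9 to 133 CPM in dex germ libraries and 150 to 188 CPM in saline germ libraries, with none at 0. In somatic libraries they summed to 99.3 to 119 CPM in dex and 103 to 109 CPM in saline. The part of such cells in the Nptx1 difference was not tested.

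Enc1 (ENSMUSG00000041773, chromosome 13, 97241105 to 97253034, plus strand) encodes an actin-binding BTB-kelch protein, a family whose members serve as adaptors of the ubiquitin ligase built on cullin 3. It stood at 301, 337 and 337 CPM in the dex germ replicates and at 193, 205 and 203 CPM in the saline germ replicates. No libraries overlapped, and the log2 fold change was 0.69 ± 0.070 (1.62-fold). The somatic libraries lay the other way round, at 171, 154 and 134 CPM in dex and 179, 196 and 186 CPM in saline. Every somatic dex library stood below every somatic saline library, which 21.4% of the genes tested in somatic cells did in one direction or the other. The somatic log2 fold change was -0.26 ± 0.087 (interval -0.45 to -0.075, edgeR adjusted p 0.128), short of the threshold. With library totals in place of TMM it was -0.32 and passed (adjusted p 0.0474).

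Akap12 (ENSMUSG00000038587, chromosome 10, 4266380 to 4359470, plus strand) encodes a large scaffold that anchors protein kinase A near the membrane. It stood at 143, 165 and 157 CPM in the dex germ replicates and at 94.95, 101 and 85.4 CPM in the saline germ replicates. The groups did not overlap, and the log2 fold change was 0.72 ± 0.086 (1.65-fold). Somatic dex libraries held 504, 565 and 531 CPM and somatic saline libraries 450, 506 and 428 CPM. Dex replicate 1 lay just below saline replicate 2, so the groups overlapped. The somatic log2 fold change was 0.24 ± 0.080 (interval 0.070 to 0.41, edgeR adjusted p 0.127), and DESeq2 on the same libraries gave 0.24 with an adjusted p of 0.0314.

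Adcy6 (ENSMUSG00000022994, chromosome 15, 98589973 to 98610076, minus strand) encodes a membrane adenylyl cyclase, an enzyme that makes cAMP on a signal from G proteins. Dex germ replicates held 42.4, 49.6 and 41.5 CPM and saline germ replicates 22.5, 22.1 and 24.1 CPM. The lowest dex library was well clear of the highest saline library, and the log2 fold change was 0.95 ± 0.11 (1.93-fold). Somatic dex libraries held 90.8, 91.4 and 92.6 CPM and somatic saline libraries 73.6, 88.0 and 79.7 CPM. The somatic groups did not overlap, nor did they in 21.4% of the genes tested in somatic cells. The somatic log2 fold change of 0.22 ± 0.087 (interval 0.033 to 0.40) did not pass (edgeR adjusted p 0.218). The antisense gene Gm29331 covers 605 bases of Adcy6 exon, 8.92% of its exon length, and had 0 counts.

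Tnrc18 (ENSMUSG00000039477, chromosome 5, 142724661 to 142817662, minus strand) encodes a large protein with a BAH domain that binds histone H3 methylated on lysine 9, a mark of silent chromatin. It was the one gene of the 7 that stood lower with dex. The dex germ replicates held 91.0, 103 and 90.4 CPM and the saline germ replicates 161, 167 and 187 CPM. No libraries overlapped, the log2 fold change was -0.86 ± 0.083, and the saline mean was 1.82 times the dex mean in the fit. Somatic dex libraries held 496, 442 and 434 CPM and somatic saline libraries 470, 589 and 455 CPM, with overlap. The somatic log2 fold change was -0.11 ± 0.089 (interval -0.30 to 0.078, edgeR adjusted p 0.607).

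**Figure D1:**
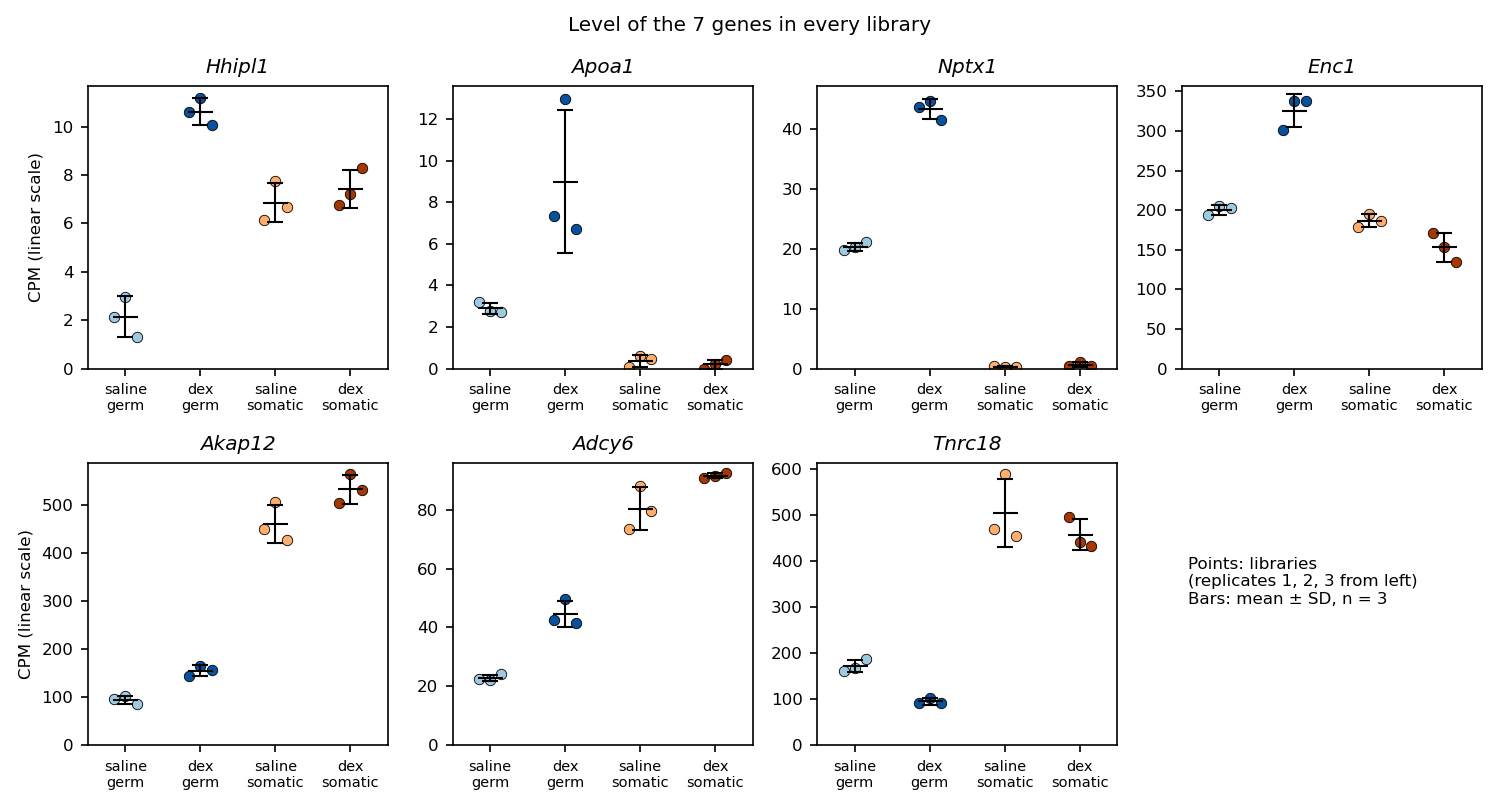
CPM of each of the 7 genes (vertical axis, linear, starting at 0) in the saline germ, dex germ, saline somatic and dex somatic groups. Points are libraries and bars are mean ± SD of 3. Dex germ points lie above saline germ points in 6 genes and below them in Tnrc18, while Apoa1 and Nptx1 lie near 0 in somatic cells.

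Across all genes tested in germ cells, edgeR called 1.25% (231 of 18550, with a Benjamini-Hochberg adjusted p of 0.05 or less). With dex 0.739% of genes were called higher and 0.507% lower, and all 7 genes are among them, as their choice requires. The libraries did not overlap in any of the 7, nor in 20% of all genes. Across the 16766 genes tested in somatic cells edgeR called 3.91% (2.74% higher and 1.17% lower with dex), against 0 of the 5 tested here. At an unadjusted p under 0.05 the somatic difference passed for 3 of these 5 (Enc1, Akap12 and Adcy6) and for 2701 of all 16766 genes. DESeq2 called 1 of the 5 and 905 of the 16018 genes it tested. The somatic results were known when the genes were chosen.

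The dex effects of both populations were also placed in 1 fit over 12 libraries, as germ effect minus somatic effect on the log2 scale. This difference contains the germ contrast, so it too is a description. Of 20551 genes tested, 0.827% were called on it, 0.414% in each direction. It was 2.20 ± 0.36 for Hhipl1, 0.99 ± 0.12 for Enc1, 0.77 ± 0.14 for Adcy6, 0.52 ± 0.12 for Akap12 and -0.71 ± 0.14 for Tnrc18. For Apoa1 it was 2.47 ± 0.91 and for Nptx1 -0.11 ± 0.42, both resting on the few somatic counts. For Apoa1 it was 3.41 without dex somatic replicate 3. For Nptx1 it turned to 0.63 without dex somatic replicate 2, the library with 22 counts, and to 0.040 without saline somatic replicate 2.

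**Figure D2:**
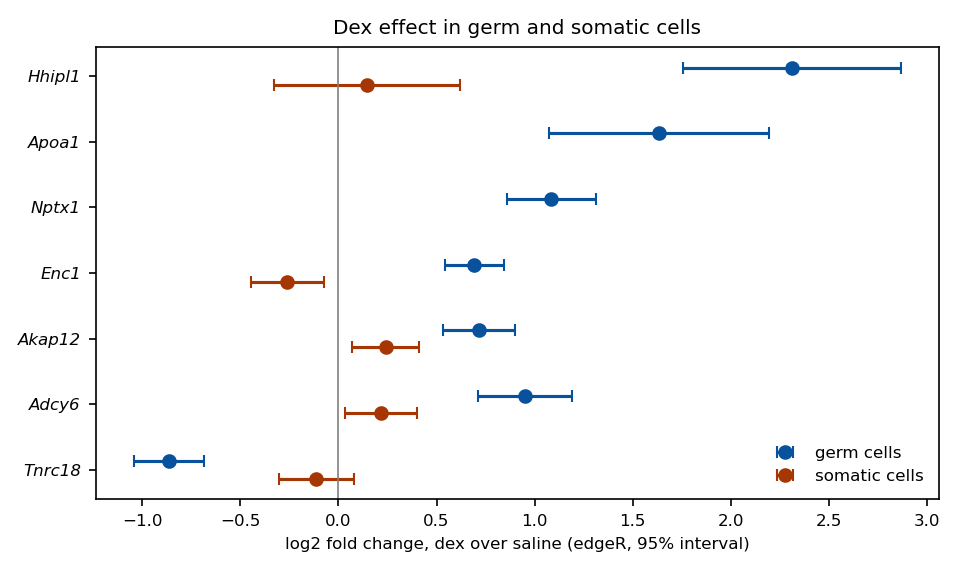
Log2 fold change of dex over saline (horizontal axis) for each gene in germ and somatic cells, with 95% intervals from edgeR. The somatic points lie between -0.26 and 0.24, and Apoa1 and Nptx1 have no somatic point because they fell below the filter.

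The level at which the germ cells held these genes without treatment was compared with the somatic level. This comparison asks in which population the RNA of each gene stood higher. It shares the saline germ libraries with the contrast that chose the genes, so the values of the 7 are given as a description with no p. edgeR called 76.5% of all 18870 genes tested (39.8% higher and 36.7% lower in germ cells), and it called 6 of the 7, so that a call by itself says little. The libraries of the populations did not overlap in the same 6 genes, nor in 79.7% of all genes. Nptx1 stood 73.6-fold higher in germ cells (6.20 ± 0.26 on the log2 scale) and Apoa1 7.62-fold higher (2.93 ± 0.59). The filter kept both here through their germ libraries. The saline somatic libraries held 5 to 7 counts of Nptx1 and 1 to 14 of Apoa1, so both values rest on few somatic counts. Akap12 stood 4.92-fold lower in germ cells (-2.30 ± 0.095), Adcy6 3.52-fold lower (-1.82 ± 0.11), Hhipl1 3.22-fold lower (-1.69 ± 0.33) and Tnrc18 2.94-fold lower (-1.56 ± 0.11).

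Enc1 without dex was close to equal in both populations, with germ libraries at 200.4 ± 6.09 CPM and somatic libraries at 187 ± 8.26 CPM, which overlapped. Its log2 fold change was 0.097 ± 0.073 (interval -0.062 to 0.26), and it was not called. The call varied with the processing. With library totals the median of all genes moved from 0.072 to 0.21 and Enc1 to 0.23, where it was called. It was also called with RLE (0.19, median of all genes 0.17) and DESeq2 (0.20, median 0.55). Both limma fits called it too (0.22 with a median of 0.29 at the smaller pseudocount, and 0.22 with 0.13 at the larger). The cause of the unlike calls was not tested.

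The comparison with dex uses the dex germ libraries that chose the genes, so its values are given as a description with no p. It called 7 of the 7 genes, against 76.3% of 18778 (40.5% higher and 35.7% lower in germ cells), and the libraries overlapped in none of the 7, nor in 79.9% of all genes. Enc1 was now 2.12-fold higher in germ cells (1.09 ± 0.096 on the log2 scale). Hhipl1 changed sides, from 3.22-fold lower to 1.43-fold higher (0.52 ± 0.20). It was not called in 6 of 14 alternatives, among them the fit of all 12 libraries and the fits without dex germ replicate 1, dex germ replicate 2, dex somatic replicate 1 or dex somatic replicate 2. Apoa1 stood 42.0-fold higher in germ cells (5.39 ± 0.60 on the log2 scale), with 6.32 without dex somatic replicate 3 and 4.85 without dex somatic replicate 1. Nptx1 stood 68.2-fold higher (6.09 ± 0.29), with 6.83 without dex somatic replicate 2. The dex somatic libraries held 0 to 8 counts of Apoa1 and 7 to 22 of Nptx1. If they carried germ cell RNA at 0.743%, it would amount to 33.1% of the mean dex somatic Apoa1 level. The part of such RNA was not tested.

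Akap12 and Adcy6, both lower in germ cells, came nearer to the somatic level with dex, from 4.92-fold to 3.45-fold lower for Akap12 and from 3.52-fold to 2.06-fold lower for Adcy6. Tnrc18 went further below it, from 2.94-fold to 4.83-fold lower. The direction of such a shift follows from the germ cell difference that chose the genes and from the level each gene started at. For Nptx1 the ratio barely changed, on somatic counts of 5 to 22.

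**Figure D3:**
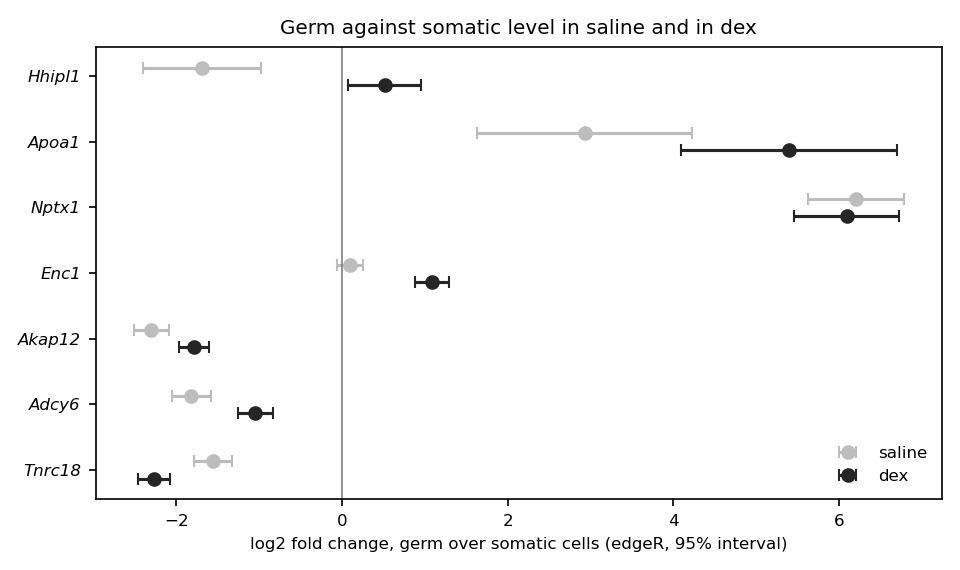
Log2 fold change of germ over somatic cells (horizontal axis) for each gene in saline and in dex, with 95% intervals from edgeR. Hhipl1 crosses 0 from -1.69 to 0.52, Enc1 leaves 0 for 1.09, and Tnrc18 goes from -1.56 to -2.27.

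Where a gene is plentiful in somatic cells, a small somatic remainder in the germ libraries weighs more. At 1.60% of the somatic level it would supply 7.39 CPM of Akap12 in saline and 8.55 CPM in dex, which is 8.66% and 5.96% of the lowest germ library. For Tnrc18 it would supply 8.09 and 7.33 CPM, 5.02% and 8.11% of the lowest germ library, against a germ level that stood at 172 CPM in saline and 94.9 CPM in dex. For Adcy6 it would be 5.84% and 3.54%, for Hhipl1 8.52% and 1.18%, for Enc1 1.55% and 0.813%, and for Apoa1 and Nptx1 at most 0.217%. The share of 1.60% is an assumption taken from the Sertoli markers of the highest saline germ library and used for both treatments. The highest dex germ library held 1.25%. Leydig markers reached 7.13%, macrophage markers 19.8% and endothelial markers 23.4% of the somatic mean, and a remainder at those shares would weigh more. The part of such a remainder in the germ cell differences was not tested.

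Between genes, levels were compared per length, as the FPKM of the authors. In saline germ cells the order was Enc1 at 43.0 FPKM, Akap12 at 14.8, Tnrc18 at 14.3, Nptx1 at 3.97, Adcy6 at 3.43, Apoa1 at 2.38 and Hhipl1 at 0.388 FPKM. Only Akap12 and Tnrc18 overlapped there as neighbours. In dex germ cells Enc1 at 70.7 and Akap12 at 24.7 FPKM still led. Nptx1 at 8.56, Tnrc18 at 7.96, Apoa1 at 7.50 and Adcy6 at 6.75 FPKM followed, each overlapping the next, and Hhipl1 at 1.95 FPKM came last. Tnrc18 thus went from above Nptx1 to within its range.

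In saline somatic cells the order was another. Akap12 led at 66.8 FPKM, followed by Tnrc18 at 38.4 and Enc1 at 36.9 FPKM, which overlapped, then Adcy6 at 11.1, Hhipl1 at 1.14, Apoa1 at 0.276 and Nptx1 at 0.0491 FPKM, of which the last pair overlapped. In dex somatic cells Akap12 stood at 79.1, Tnrc18 at 35.7, Enc1 at 30.9, Adcy6 at 12.9 and Hhipl1 at 1.27 FPKM.

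The relatives of each gene, taken from lists of pathways and families, give its surroundings. Among 20 other genes of the hedgehog pathway and the Hhip family, 20 were tested in germ cells and 1 was called. This was Ptch1, the hedgehog receptor and itself a target of the pathway, which rose from 126 ± 8.23 to 162 ± 4.77 CPM (log2 fold change 0.35 ± 0.075, edgeR adjusted p 0.0351). Hhip stood at 1.62 CPM in dex germ and 1.39 CPM in saline germ cells (0.20 ± 0.41), and Hhipl2, the nearest relative by name, at 1.90 and 2.88 CPM (-0.60 ± 0.41). Neither passed (adjusted p 0.875 and 0.544). In somatic cells Gas1 (0.82 ± 0.094, adjusted p 0.000108) and Boc (0.48 ± 0.099, adjusted p 0.0111), which are co-receptors for hedgehog ligands, rose, and Dhh, the ligand that Sertoli cells secrete, had a log2 fold change of -0.21 ± 0.094 (adjusted p 0.274).

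Of 23 other apolipoproteins and genes of HDL handling, 18 were tested in germ cells and edgeR called 0, with 3 at an unadjusted p under 0.05 and 1 called by DESeq2 (Clu). Clu is also 1 of the 9 Sertoli markers, whose sum in germ libraries stood lower with dex. Their median log2 fold change was 0.022 against -0.0027 over all genes. Apoe, which also carries lipid, stood at 4.72 CPM in dex germ and 7.17 CPM in saline germ cells (-0.60 ± 0.25, adjusted p 0.268), and Abca1, the transporter that loads cholesterol onto Apoa1, had a log2 fold change of -0.051 ± 0.088 (adjusted p 0.846). In the pentraxin and AMPA receptor list edgeR called 0 of 5 genes tested in germ cells, 0 of them at an unadjusted p under 0.05 and 0 by DESeq2. Nptx2, the closest partner of Nptx1, was germ-enriched too, at 70.3 CPM in saline germ and 2.85 CPM in saline somatic cells, but stood at 75.5 CPM in dex germ cells (0.095 ± 0.097, adjusted p 0.708). Nptxr, the membrane-bound member, had 0.090 ± 0.13 in germ cells (adjusted p 0.814) and rose in somatic cells by 0.58 ± 0.13 (adjusted p 0.0208).

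Of 37 other BTB-kelch and cullin 3 genes, 29 were tested in germ cells and edgeR called 0, with a median of 0.081. At an unadjusted p under 0.05 there were 2, and DESeq2 called 1 (Klhl5). Klhl25, a close relative of Enc1, had a log2 fold change of -0.043 ± 0.19 (adjusted p 0.949) and Keap1, the sensor of oxidative stress, 0.15 ± 0.17 (adjusted p 0.736). In the list of BAH proteins and H3K9 methylation, 26 genes other than Tnrc18 were tested in germ cells and edgeR called 2, both lower with dex. They were Dnmt1, which copies DNA methylation after replication (845 to 697 CPM, -0.28 ± 0.063, adjusted p 0.0436), and Uhrf1, which guides it there (592 to 489 CPM, -0.28 ± 0.065, adjusted p 0.0495). Bahcc1, a BAH protein related to Tnrc18, had -0.37 ± 0.10 (adjusted p 0.0937) and Setdb1, an H3K9 methyltransferase, 0.029 ± 0.067 (adjusted p 0.892). In germ cells 5 of the 26 had an unadjusted p under 0.05 in edgeR. DESeq2 called 4 of them there, Dnmt1, Uhrf1, Bahcc1 and Hdac1. In somatic cells edgeR called 0 of these 26, with 1 at an unadjusted p under 0.05, and DESeq2 called 0.

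The cAMP lists surround Akap12 and Adcy6. Of 17 other anchoring proteins 15 were tested in germ cells and 1 rose, Akap13, from 247 ± 2.76 to 309 ± 8.43 CPM (0.32 ± 0.063, edgeR adjusted p 0.0263). Akap1, the mitochondrial anchor, had 0.034 ± 0.085 (adjusted p 0.900). All 7 other adenylyl cyclases tested in germ cells had positive log2 fold changes, from 0.093 to 0.498 with a median of 0.22, and 0 of the 7 passed in edgeR, with 3 at an unadjusted p under 0.05. DESeq2 called 1, Adcy1. This calcium-stimulated cyclase was the nearest to the threshold of edgeR, at 24.9 CPM in dex and 17.55 CPM in saline germ cells (0.50 ± 0.13, adjusted p 0.0793). Adcy9 had 0.39 ± 0.15 (adjusted p 0.238), Adcy3 0.21 ± 0.089 (adjusted p 0.286) and Adcy7 0.093 ± 0.10 (adjusted p 0.732). In somatic cells the median of the 7 tested was -0.00018, edgeR called 0, with 1 at an unadjusted p under 0.05, and DESeq2 called 1 (Adcy5). Among the subunits and inhibitors of protein kinase A edgeR called 0 of 8 in germ cells, with 3 at an unadjusted p under 0.05, and DESeq2 called 1 (Prkar2a). Prkaca, its main catalytic subunit, had 0.14 ± 0.10 (adjusted p 0.581). Of 15 cAMP phosphodiesterases 12 had positive log2 fold changes in germ cells. edgeR called 0, with 3 at an unadjusted p under 0.05, and DESeq2 called 0. Of 14 cAMP effectors and CREB factors edgeR called 0, with 4 at an unadjusted p under 0.05, and DESeq2 called 1 (Creb3l1).

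**Figure D4:**
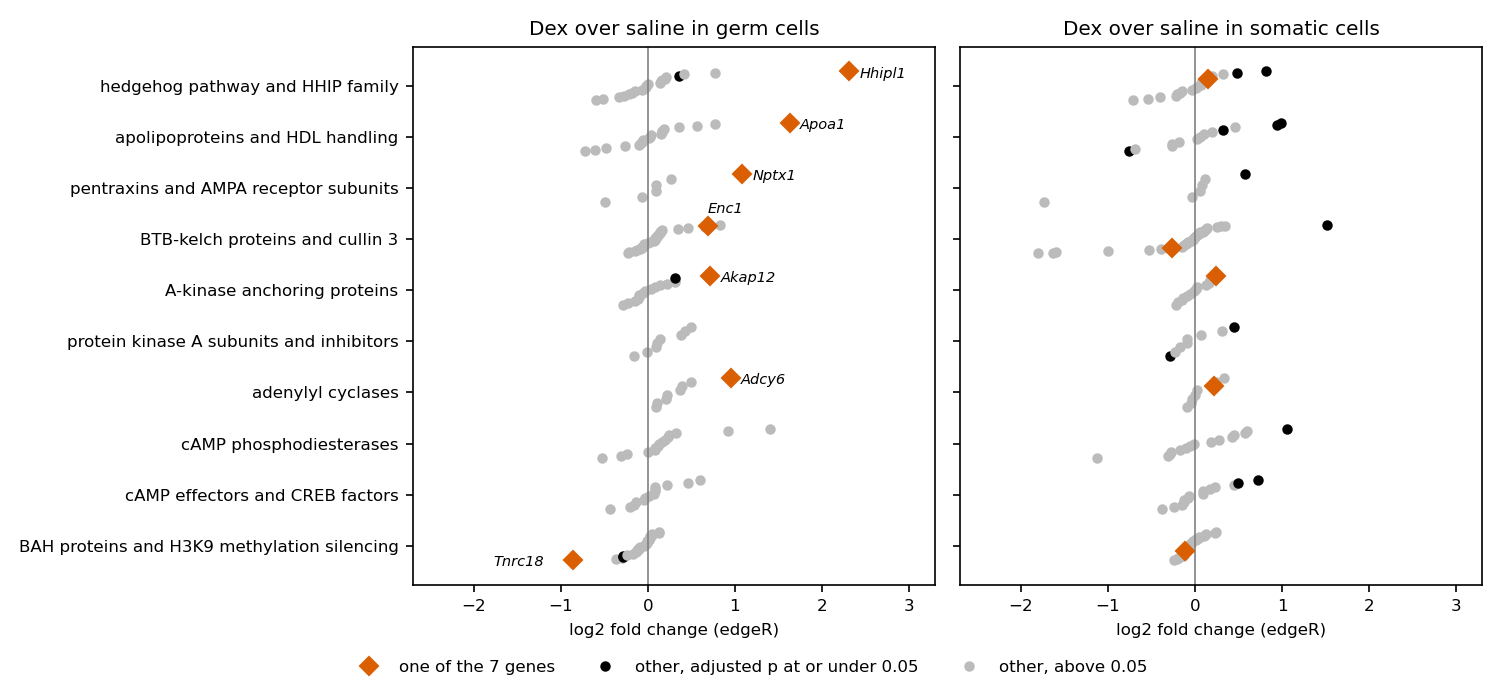
Log2 fold change of dex over saline (horizontal axis) in germ cells and in somatic cells for the tested genes of 10 lists (rows). Diamonds are the 7 genes, black points other genes with an edgeR adjusted p at or under 0.05 and grey points the rest. In germ cells only Ptch1, Akap13, Dnmt1 and Uhrf1 are black.

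The genes whose log2 CPM followed each of the 7 most closely over the 12 libraries were found among 11475 genes, by Pearson's r. All 12 libraries share the split into germ and somatic cells, which raises r for any gene with a germ or somatic bias. Nptx1 was followed by Sestd1 (r = 0.996) and 1110008L16Rik (0.995), Akap12 by Fgfr1 (0.993) and Agtr2 (0.992), Adcy6 by Atp2b4 (0.993) and Ets2 (0.984), and Tnrc18 by Sec22b (0.990) and Mfhas1 (0.989). For Apoa1 they were Slc6a17 (0.985) and Ccdc171 (0.977). The values were lower for Hhipl1, with Lipa (0.951) and Tent5a (0.873), and for Enc1, with Ermp1 (0.937) and Mkrn1 (0.925).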

How the data were processed

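RNA was sequenced from 12 libraries in 4 groups of 3, taken from the labels. The authors selected mRNA on poly-dT beads, aligned paired-end reads to mm10 (GRCm38) with HISAT2 2.0.5 and counted them with featureCounts 1.5.0-p3. The deposited counts are raw and unnormalized. The FPKM values deposited by the authors divide these counts by gene length and depth. The annotation release and strand setting are not given in the sources used here. The tables of the authors' own comparisons (DESeq2 1.20.0), with log2 fold changes and p-values, were not used. Gene coordinates come from the count table, and 99.8% of its identifiers are in GENCODE M21.

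Each comparison was fitted on its 6 libraries with the quasi-likelihood test of edgeR 4.0.16 (R 4.3.3), TMM scaling, and genes kept by filterByExpr (minimum count 10). Calls are made at a Benjamini-Hochberg adjusted p at or under 0.05 over all genes tested. SE is the log2 fold change divided by the square root of F, and 95% intervals use the total degrees of freedom of the fit (residual plus prior). CPM uses TMM over 12 libraries, and log2 CPM a prior count of 2. Alternatives were library totals, RLE, DESeq2 1.42.0, no filter, limma 3.58.1 on log2(FPKM + 0.1) and log2(FPKM + 1) (genes with a mean of at least 0.1), a replicate block, 1 fit of all libraries, and leaving out each library. The comparisons share libraries with each other.

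Library totals were 18459692 to 25178477 counts. The 7 genes, the 10 lists of related genes and the 9 marker lists were chosen with earlier results of these data known. Besides the 7 genes, the text names called genes of those lists (at most 4 per list and population), a fixed set of relatives, and for likeness the 2 genes of highest r with a mean log2 CPM of at least 2. Adcy1, Dhh and genes called by DESeq2 alone were added after their values were seen. The scripts were tested on simulated data.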

Additional observations from a re-analysis of the deposited data

Results flagged for a closer look

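Enc1 was singled out because its libraries moved in opposite directions in the cell populations. Every dex germ library stood above every saline germ library, and every dex somatic library stood below every saline somatic library. In either direction, 20% of the genes tested in germ cells and 21.4% of those tested in somatic cells had no overlap. The germ minus somatic dex effect was 0.99 on the log2 scale. Since the germ contrast chose the gene, this difference was not tested, and the somatic part alone did not pass (edgeR adjusted p 0.128).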

How the results depend on the processing

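Each result was recomputed under 14 alternatives (19 for the germ minus somatic effect). The number of genes called for dex in germ cells (231) became 675 with DESeq2, 767 with no filter, 142 in 1 fit of all libraries, and 0 with limma on log2(FPKM + 0.1) and 0 on log2(FPKM + 1), where 2754 and 2678 genes had an unadjusted p under 0.05. Leaving out 1 library gave 49 to 265, with 115 and 102 without dex germ replicates 1 and 3, and 49 and 75 without saline germ replicates 1 and 2. Of the 7 genes, limma called 0 and 0, as of all genes, while 1 fit of all libraries called 6 and every fit that left out a library called 7. The germ contrast chose these genes, so their calls on it are a description and not a test. In somatic cells 655 became 1061 with no filter, 184 and 144 with limma at the smaller and larger pseudocount, and 354 to 547 without 1 library, where leaving out dex somatic replicate 2 gave 398, saline somatic replicate 1 gave 383 and saline somatic replicate 3 gave 354. Of the 5 genes tested there, library totals called 1 (Enc1, lower) beside 708 of all genes, and DESeq2 called 1 (Akap12, higher) beside 905. The germ minus somatic count (170) became 620 with DESeq2, 706 with no filter, 56 and 75 with limma, and 79 to 172 without 1 library, 8 of the 12 fits being at or under 110. The cause was not tested.

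The Nptx1 germ minus somatic effect (-0.11) reversed to 0.62 and 0.86 with limma, 0.63 without dex somatic replicate 2 and 0.040 without saline somatic replicate 2 (leave-one-out range -0.40 to 0.63). Enc1 in saline was called higher in germ cells with library totals (0.23), RLE (0.19), DESeq2 (0.20) and both limma fits (0.22 and 0.22). The germ dex log2 fold changes kept their sign in all 7 genes under every alternative, with leave-one-out ranges of 2.05 to 2.61 for Hhipl1 and 1.27 to 1.80 for Apoa1, and log2(FPKM + 1) gave 1.09 for Hhipl1.

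With the replicate number as a block (replicate block), germ dex calls were 65 and germ minus somatic calls 104, and Hhipl1 in dex lost its germ against somatic call. The 7 genes all stayed called in germ cells, on the contrast that chose them. Deviations of same-numbered dex and saline germ libraries had correlations of 0.149, -0.247 and -0.170. With 3 libraries per group these cannot settle whether the numbers pair the libraries. The highest value was 0.385, between dex germ replicate 2 and saline germ replicate 3. In saline, each germ library correlated best with the somatic library of its own number (0.076 to 0.109), a hint from the data only. In dex the same-numbered germ and somatic libraries had 0.018, -0.024 and -0.0015. The labels do not say whether germ and somatic libraries of the same number came from the same testes. Depth limits Apoa1 and Nptx1 in somatic cells, where no library had over 22 counts.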

Other observations

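Several relatives of the 7 genes were called for dex in somatic cells, where their log2 fold changes with SE are given here. Whether their germ cell effect differs was tested by the germ minus somatic fit, where edgeR called 0 genes of the 10 lists, with at most 6 per list at an unadjusted p under 0.05, and DESeq2 called Gas1, Clu, Klhl29, Pde4a and Pde11a. In the lipoprotein list Pltp, which moves phospholipid between lipoproteins (0.94 ± 0.12, edgeR adjusted p 0.000215), Lipg, endothelial lipase (0.99 ± 0.24, adjusted p 0.0298), and Lrp1, a lipoprotein receptor (0.33 ± 0.085, adjusted p 0.0425), rose with dex, and Abcg1, a cholesterol exporter, fell (-0.76 ± 0.16, adjusted p 0.0124). In the BTB-kelch list Klhl29 rose (1.52 ± 0.28, adjusted p 0.00558). In the cAMP lists Pde4a, which breaks down cAMP (1.06 ± 0.21, adjusted p 0.00982), Creb3l1, a membrane-bound transcription factor (0.73 ± 0.092, adjusted p 0.000226), Gnai1, an inhibitory G protein subunit (0.50 ± 0.12, adjusted p 0.0328), and the regulatory subunit gene Prkar1b (0.45 ± 0.12, adjusted p 0.0424) rose, and Prkar2b fell (-0.29 ± 0.076, adjusted p 0.0424). The summed markers of peritubular and stromal cells stood at 8338 to 9643 CPM in dex and 5000 to 6588 CPM in saline somatic libraries, macrophage markers at 19.4 to 25.8 and 42.9 to 75.5 CPM, and their part in these changes was not tested.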
